A study of Mus musculus with 6 samples.

Results

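The genes described here encode the synaptic vesicle and SNARE machinery of neurons. They were chosen by gene symbol and comprise the synaptotagmins, Vamp genes, syntaxins, syntaxin-binding proteins, SNAP-25 family and synapsins. Synaptophysin and its relatives, complexins, Rab3 genes, SV2 genes, vesicular glutamate transporters, RIM and Munc13 genes, Bassoon and Piccolo completed the set. Of the 55341 genes in the deposited table, 83 were members. The symbol pattern for the SNAP-25 family also took in Snap91, a clathrin assembly protein and not a SNARE, which is kept apart below. The table held 6 single olfactory sensory neurons from the olfactory epithelium of wild type C57BL/6 mice aged 6 weeks. Each cell was frozen after a physiological recording and made into its own CEL-Seq2 library, a method that counts the 3′ ends of transcripts. All 6 cells carried the same labels and no animal was named, so they form 1 group, and every value below is given per cell with no p-value.

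An action potential at a nerve terminal opens calcium channels, and vesicles then fuse when a vesicle SNARE of the Vamp family zips together with syntaxin and SNAP-25 in the plasma membrane. Synaptotagmins sense the calcium, complexins hold the SNARE complex in readiness, and Munc13 and RIM proteins prepare the vesicle at the active zone. Axons of olfactory sensory neurons release glutamate in the glomeruli of the olfactory bulb, from vesicles filled chiefly by VGLUT2, the product of Slc17a6. Other SNARE proteins serve traffic inside the cell, such as the transport of endosomes, lysosomes and Golgi vesicles.

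The libraries held 8613, 34478, 122546, 60902, 22525 and 11725 counts in cells 1 to 6. Levels are given as CPM, counts scaled to a common library total. Values per kilobase of exons are given beside some of them as an alternative scale. Because the method counts 3′ ends, counts need not grow with transcript length. An order seen only per kilobase is therefore not a correction of the CPM order. A single count was worth 116, 29.0, 8.16, 16.4, 44.4 and 85.3 CPM in cells 1 to 6. The limit given to a count of 0 was 3 counts, which was worth least in cell 3, 24.5 CPM, and most in cell 1, at 348 CPM. Mature olfactory sensory neuron markers summed to 29839, 17170, 27484, 14351, 15938 and 18081 CPM in cells 1 to 6. All 12 were found in each of cells 1 to 5 and 7 of 12 in cell 6, where Cnga2, Cnga4, Cngb1, Rtp1 and Ano2 were at 0. A list of Bowman's gland and secretory genes summed to 6850, 19810, 971, 378, 5194 and 85.3 CPM in cells 1 to 6. Of these, Bpifb4 and Muc5b were at 0 and Sox9 and Aqp5 had 1 and 2 counts in all. Obp1a gave 354 of the 683 counts in cell 2. Red blood cell genes summed to 1742, 4264, 4080, 12610, 2575 and 171 CPM, with Alas2 at 0. Sustentacular cell markers summed to between 85.3 and 928 CPM. Horizontal basal and microvillous cell markers were at 0 in all 6 cells. The part of RNA from other cells in the values below was not tested, and no library without a cell was analysed here. All intervals are exact 95% intervals for counting error only. Whether a count is a molecule or a read is not given in the sources used here, and the intervals are too narrow if it is a read.

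Most of the machinery was found, and it took up about 1 in 100 counts. A total of 61 members had a count in at least 1 cell, which is 73.5% of the 83, against 49.8% of 21910 protein-coding genes. A count in all 6 cells was seen for 10 members, or 12.0%, against 2.84% of protein-coding genes. These 10 were Syt1, Syt4 and Syt11, the SNARE genes Vamp2, Snap25 and Stx7, and Syp, Syn1, Rims2 and Bsn. Without cell 6, 19 members were found in every cell, or 22.9%, against 6.02% of protein-coding genes. With at least 3 counts asked for in all 6 cells there were 2 members, or 2.41%, against 0.822%. With every cell thinned to 8613 counts there were 4.5, the median over draws, or 5.42%, against 1.27%. The other 22 members had no count in any cell, and 3 counts over the pooled libraries would be 11.5 CPM. Those found had a median of 5205 exonic bases and those at 0 a median of 3870.

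Members together had 2465 of 260789 counts, a share of 0.945%, and Syt11 alone gave 17.4% of them. The summed level was 6502 CPM in cell 1 (4911 to 8443), 5569 CPM in cell 2 (4809 to 6415) and 10208 CPM in cell 3 (9650 to 10790). It was 10624 CPM in cell 4 (9821 to 11475), 10477 CPM in cell 5 (9183 to 11903) and 7079 CPM in cell 6 (5638 to 8775). Cells 3, 4 and 5 thus lay above cells 1, 2 and 6, and the intervals of the 2 sets of cells did not overlap. The highest cell, cell 4, was 1.91 times the lowest, cell 2 (1.62 to 2.25). Which cells these were depended on the scaling. With edgeR's TMM cell 3 was the highest and cell 1 the lowest, with a ratio of 3.41, and with DESeq2's size factors cell 4 was the highest and cell 1 the lowest, with a ratio of 2.29. The mitochondrial share of counts was 14.4%, 11.7%, 6.47%, 4.40%, 7.62% and 12.3% in cells 1 to 6, so it was lower in each of the 3 cells with the higher sums. Its part in the sums was not tested.

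The number of members found followed depth only in part. It was 25, 41, 48, 50, 42 and 17 in cells 1 to 6. With each cell thinned to 8613 counts the medians over 20 draws were 25, 23, 28, 29.5, 30.5 and 15.5. Cell 6 therefore showed the fewest members at equal depth as well. It also showed the smallest share of all protein-coding genes at that depth, 7.34%, against 11.3% to 14.4% in the other cells.

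**Figure D1:**
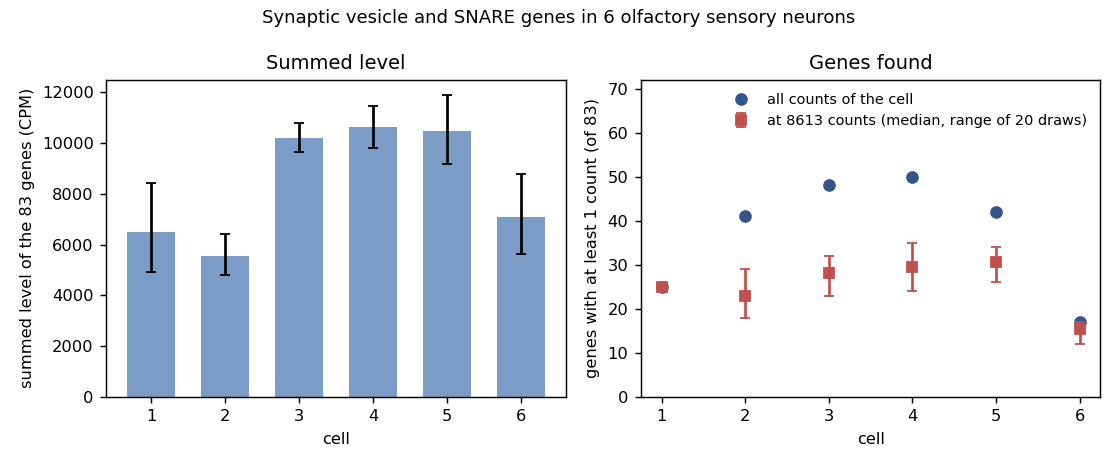
Summed level of the 83 members in each cell in CPM, with exact 95% Poisson intervals, and the number of members with a count at full depth and after thinning to 8613 counts. Cells 3, 4 and 5 lie between 10208 and 10624 CPM and cells 1, 2 and 6 between 5569 and 7079 CPM, and cell 6 has the fewest members found.

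Promoter windows of 300 bases, from 250 before to 50 after the transcript start, were taken from RefSeq on GRCm38.p6 and matched 65 of the 83 members with 84 windows. The GC box GGGCGG, searched on both strands, was in 66.7% of member windows, against 35.7% of all 32851 windows. The EBF motif, the kind of site bound by a transcription factor family of olfactory neurons, was in 1.19% of member windows (1 window, of Stx2) and in 0.904% of all windows. TATAAA was in 5.95% of member windows and 13.6% of all windows, the cyclic AMP element TGACGTCA in 2.38% and 1.79%, and the homeodomain letters TAATTA in 3.57% and 5.29%. The median number of CpG pairs was 19 in member windows and 7 in all windows, and the median GC content was 62.33% and 52.67%. The percentages describe letters only and say nothing of binding. A set of 4 windows is shown for genes on which the later comparisons turn. These are Syt11, the member at the highest level, Syt1 and Syngr1, which were high in cell 3 against cell 4, and Stx2, which was low in that comparison and had the EBF motif. They lie at chr3:88772550-88772849 on the minus strand for Syt11, chr10:109010926-109011225 on the minus strand for Syt1 (1 of 2 windows), chr5:129008523-129008822 on the minus strand for Stx2 (1 of 2 windows) and chr15:80091084-80091383 on the plus strand for Syngr1. Each is written 5′ to 3′ along the gene. Capitals mark the GC box on the printed strand for Syt11, Syt1 and Syngr1, and the EBF motif for Stx2.
Syt11: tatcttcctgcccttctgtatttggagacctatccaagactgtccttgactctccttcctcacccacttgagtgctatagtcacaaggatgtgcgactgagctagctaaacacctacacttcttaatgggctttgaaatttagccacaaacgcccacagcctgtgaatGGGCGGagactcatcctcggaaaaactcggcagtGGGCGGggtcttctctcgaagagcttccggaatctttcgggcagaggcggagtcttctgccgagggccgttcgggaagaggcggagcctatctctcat
Syt1: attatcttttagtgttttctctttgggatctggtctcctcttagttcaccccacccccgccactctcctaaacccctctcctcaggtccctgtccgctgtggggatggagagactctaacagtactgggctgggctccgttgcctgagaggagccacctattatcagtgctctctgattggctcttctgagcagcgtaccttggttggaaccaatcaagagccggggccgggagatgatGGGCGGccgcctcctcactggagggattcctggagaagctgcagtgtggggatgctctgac
Stx2: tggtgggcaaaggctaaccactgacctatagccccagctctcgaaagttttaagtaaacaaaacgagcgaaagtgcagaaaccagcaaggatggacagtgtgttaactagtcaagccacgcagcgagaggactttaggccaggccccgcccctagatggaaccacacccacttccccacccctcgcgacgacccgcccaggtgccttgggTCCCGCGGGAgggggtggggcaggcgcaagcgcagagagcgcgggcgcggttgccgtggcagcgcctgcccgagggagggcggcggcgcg
Syngr1: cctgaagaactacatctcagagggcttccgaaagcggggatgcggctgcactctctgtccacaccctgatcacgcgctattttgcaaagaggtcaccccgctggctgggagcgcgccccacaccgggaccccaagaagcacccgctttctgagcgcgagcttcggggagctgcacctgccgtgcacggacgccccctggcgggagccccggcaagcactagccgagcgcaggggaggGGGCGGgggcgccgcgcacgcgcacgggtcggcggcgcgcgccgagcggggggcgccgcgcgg

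The synaptotagmins held more counts than any other family, 1044 of the 2465, with a median sum of 3809 CPM (1914 to 4750). Of 17 genes, 7 were found. Syt11, whose first C2 domain lacks the usual calcium-binding residues and which is known for roles in membrane traffic, had the most counts in every cell. It lies on chromosome 3 at 88744700 to 88775164 (GRCm38, minus strand), and the RefSeq start of the window shown lies inside that span. Syt11 had 12, 33, 217, 95, 47 and 26 counts in cells 1 to 6, or 1393, 957, 1771, 1560, 2087 and 2217 CPM. Cell 6 was the highest and cell 2 the lowest, and as a ratio these lay closer together than in the other synaptotagmins below. With a mean of 1664 CPM, or 320 CPM per kilobase of exons, it was the top member on both scales. By cell it was the top member per kilobase in all but cell 4, where Syt4 had 304 CPM per kilobase and Syt11 had 299.7. Of the family's counts, its share was lowest in cell 4, 35.7%, and highest in cell 6, 74.3%.

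The other 3 abundant synaptotagmins were each high in some cells and low in another. Syt7, a slow calcium sensor of high affinity, had 4, 12, 174, 73, 17 and 0 counts in cells 1 to 6, or 464, 348, 1420, 1199, 755 and 0 CPM. In cell 6, 9.82 counts would have been expected at the mean level of the other cells, and each of these lay above the 256 CPM that 3 counts would give there. Syt4, which shares with Syt11 the changed first C2 domain and is known from dense-core vesicles, had 4, 1, 43, 72, 26 and 6 counts, or 464, 29.0, 351, 1182, 1154 and 512 CPM. Cell 2 thus had a single count of Syt4, where 25.3 were expected from the others. Syt1, the fast calcium sensor of synchronous release, had 7, 18, 78, 3, 13 and 2 counts, or 813, 522, 636, 49.3, 577 and 171 CPM. Cell 4 had 3 counts of Syt1, where 33.1 were expected from the others.

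The remaining synaptotagmins were sparse. Syt5 had 0, 1, 29, 14, 4 and 0 counts in cells 1 to 6. Syt14, which does not bind calcium, had 11 counts, 9 of them in cell 4, and Syt16 had 2. Syt2 and Syt9, the other fast calcium sensors of release in mouse neurons, were at 0 in all 6 cells, as were Syt3, Syt6, Syt8, Syt10, Syt12, Syt13, Syt15 and Syt17. Syt1 was therefore the one fast sensor found. Cell 6 had 2 counts of it and cell 4 had 3.

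**Figure D2:**
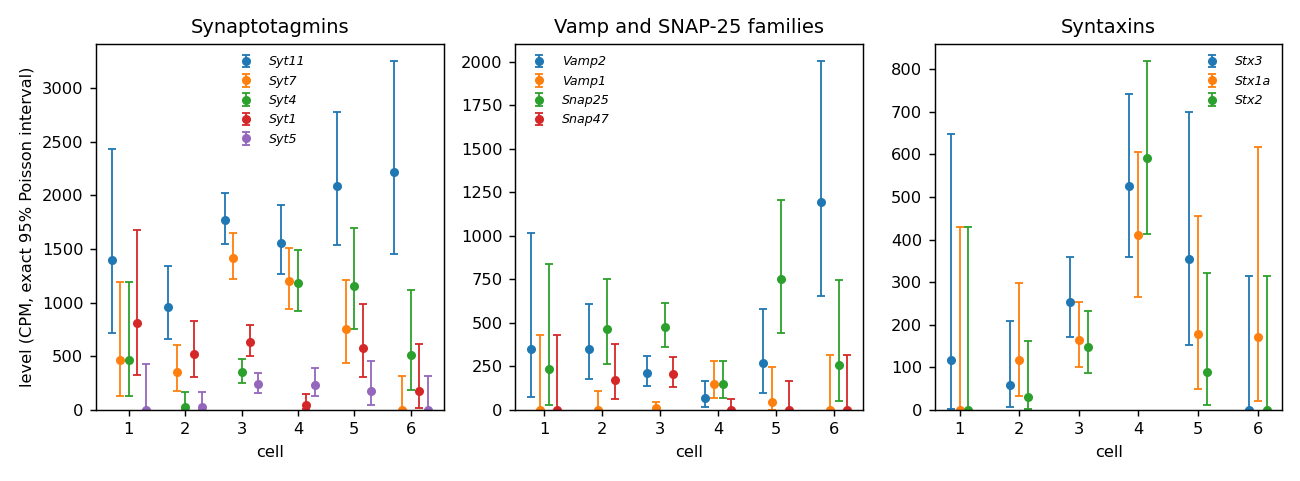
Level of chosen members in each cell in CPM, with exact 95% Poisson intervals, for synaptotagmins, for vesicle SNARE and SNAP-25 genes, and for syntaxins. Syt11 stays between 957 and 2217 CPM, while Syt1 and Vamp2 have their lowest values in cell 4 and Vamp2 its highest, 1194 CPM, in cell 6.

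Among the vesicle SNAREs, Vamp2, the main one of brain synapses, led and was found in every cell. It lies on chromosome 11 at 69088490 to 69092384 (plus strand). Vamp2 had 3, 12, 26, 4, 6 and 14 counts in cells 1 to 6, or 348, 348, 212, 65.7, 266 and 1194 CPM. Cell 6 was the highest and cell 4 the lowest. Of the summed CPM of the family 84.0% was Vamp2, and 85.8% per kilobase of exons. In cell 4 Vamp2 was 4 of 14 counts, or 28.6% (8.39% to 58.1%), and Vamp1, a close relative known from motor and brainstem neurons, had 9, with 1 of Vamp3. Per kilobase of exons Vamp2 stayed above Vamp1 in cell 4, at 17.2 and 14.5 CPM per kilobase. Vamp1 had 1 count in each of cells 3 and 5 and none elsewhere. Vamp3, of recycling endosomes, had 13 counts, Vamp4, of the Golgi, 2 and Vamp8, of late endosomes, 1, and Vamp5 and Vamp9 were at 0.

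Snap25, the plasma membrane partner of Vamp2 at synapses, lies on chromosome 2 at 136713453 to 136782428 (plus strand). It had 2, 16, 58, 9, 17 and 3 counts in cells 1 to 6, or 232, 464, 473, 148, 755 and 256 CPM. Cell 5 was the highest and cell 4 the lowest. It gave 84.7% of the family's CPM, and 69.1% per kilobase. Snap47, an intracellular relative, was found in cells 2 and 3 alone, with 6 and 25 counts. Per kilobase of exons it was at 77.0 CPM in cell 3, where Snap25 was at 69.7. Snap23 and Snap29, which serve SNARE complexes in many cell types, had 1 and 2 counts.

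No single syntaxin dominated. Stx3, known from ribbon synapses and apical membranes, had 1, 2, 31, 32, 8 and 0 counts in cells 1 to 6, or 116, 58.0, 253, 525, 355 and 0 CPM. Stx1a, a syntaxin of brain synapses, had 0, 4, 20, 25, 4 and 2 counts, or 0, 116, 163, 410 (266 to 606), 178 and 171 CPM. Stx3 had 23.9% of the family's CPM and Stx1a 19.0%. Divided by exon length, with which counts of 3′ ends need not grow, Stx1a had 29.1% and Stx3 17.1%. Stx2, of the plasma membrane in many cell types, had 0, 1, 18, 36, 2 and 0 counts, or 0, 29.0, 147, 591, 88.8 and 0 CPM. Cell 4 was the highest of the 6 for each of Stx1a, Stx2 and Stx3.

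Syntaxins of inner membranes were found at low counts. Stx12, of recycling endosomes, had 1, 2, 7, 6, 4 and 0 counts, and Stx7, of late endosomes, 1, 1, 5, 3, 2 and 3. Stx17, of autophagosomes, had 15 counts, 11 of them in cell 3. Stx4a, of the plasma membrane, had 7 counts in cell 3 and 10 in cell 4. Stx5a, Stx6, Stx8, Stx16 and Stx18, of the Golgi, endosomes and endoplasmic reticulum, had 1 to 9 counts each, and Stx11 and Stx19 were at 0.

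Among the syntaxin-binding proteins described here, Stxbp2, known from secretion in cells outside the brain, had 10 counts in cell 4 and none elsewhere. Stxbp4, a binding partner of Stx4, had 18 counts in cell 3 and 2 in cell 4. Stxbp5, or tomosyn, an inhibitor of SNARE assembly, had 5 counts and Stxbp6 had 2, and Stxbp3 was at 0.

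Cplx2 was the one complexin found beyond a single count. It had 1, 4, 28, 26, 2 and 0 counts in cells 1 to 6, with 427 CPM in cell 4 as its highest level (279 to 626). Cplx3, known from retina, had 1 count, and Cplx1 and Cplx4 were at 0.

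The vesicle proteins Syp and Syn1 were found in all 6 cells and their relatives in fewer. Syp, or synaptophysin, had 2, 12, 51, 12, 5 and 2 counts, or 232, 348, 416, 197, 222 and 171 CPM. This was a narrow range of levels, but the 2 counts in cells 1 and 6 had wide intervals, 28.1 to 839 and 20.7 to 616 CPM. For Syp, 16.8% of the exonic bases overlap Gm14703, which had 1 count. Syngr1, or synaptogyrin, had 1, 3, 57, 3, 1 and 0 counts and was above Syp in cell 3 alone, also per kilobase of exons. Syngr3 had 14 counts and Sypl 10, and Syngr2 and Syngr4 were at 0. Syn1, a synapsin that tethers vesicles in the reserve pool, had 1, 2, 25, 19, 5 and 4 counts. Syn2 had 34 of its 43 counts in cell 3, and Syn3 was at 0. Syn1 shares 0.273% of its exonic bases with Araf, which had 24 counts.

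The SV2 genes, vesicle proteins that interact with synaptotagmin, changed order between cells. Sv2a had 0, 2, 21, 31, 2 and 7 counts in cells 1 to 6, and Sv2c had 1, 0, 11, 4, 8 and 7. Sv2a was 88.6% of the family's counts in cell 4 (73.3% to 96.8%) and 15.4% in cell 5 (1.92% to 45.4%), where Sv2c led. These intervals do not overlap. Sv2b had 13 counts, 9 of them in cell 3. Over all 6 cells Sv2a had 49.4% of the summed CPM and Sv2c 42.4%; without cell 4, Sv2a had 39.6% and Sv2c led. Per kilobase of exons Sv2a had 66.6% and was above Sv2c in all but cells 1 and 5.

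Of the vesicular glutamate transporters, Slc17a6 was the main one. It lies on chromosome 7 at 51622006 to 51671119 (plus strand). Slc17a6 had 1, 4, 40, 10, 1 and 0 counts in cells 1 to 6, or 116, 116, 326, 164, 44.4 and 0 CPM. It was highest in cell 3, and the limit for the 0 in cell 6 is 256 CPM. Slc17a8, encoding VGLUT3, had 2 counts in cell 3 and 5 in cell 4. Slc17a7, encoding VGLUT1 of cortical neurons, was at 0 in all 6 cells.

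Genes of vesicle docking and the active zone were found at low levels in most cells. Rab3a, the vesicle GTPase that binds RIM, had 2, 6, 22, 12, 6 and 0 counts in cells 1 to 6, which is 232, 174, 180 (113 to 272), 197, 266 and 0 CPM. The levels of the 5 cells that had it lay close together, but cell 1 had only 2 counts (28.1 to 839 CPM). The interval for the 0 in cell 6 reached 315 CPM, above each of these levels. Rab3a gave 64.7% of the Rab3 CPM. Rab3b, Rab3c and Rab3d had 9, 7 and 15 counts. Bsn, or Bassoon, a giant scaffold of the active zone, had 1, 3, 41, 11, 3 and 1 counts, and Pclo, or Piccolo, its relative, had 3, 6, 11, 8, 5 and 0.

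RIM and Munc13 genes had few counts, 29 and 40 in all, though each family was found in every cell. Rims2 had 1, 3, 1, 1, 7 and 2 counts in cells 1 to 6, Rims1 had 9 in all, Rims3 5, and Rims4 was at 0. Unc13b, a Munc13 gene of priming, had 0, 5, 11, 7, 2 and 1 counts, and Unc13a, the main form of brain synapses, 1, 0, 0, 3, 2 and 1. Unc13d had 6 counts and Unc13c 1. Snap91, the clathrin assembly protein AP180 of vesicle retrieval, had 0, 3, 21, 9, 6 and 0.

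In all, 27 members had at least 20 counts over the 6 cells and held 89.6% of the member counts. Of these, 8 were found in 6 cells, 13 in 5, 3 in 4, 1 in 3 and 2 in 2. The other 34 found members had 1 to 17 counts each and 10.4% of the member counts. Their highest level in any cell ran from 16.4 to 311 CPM.

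**Figure D3:**
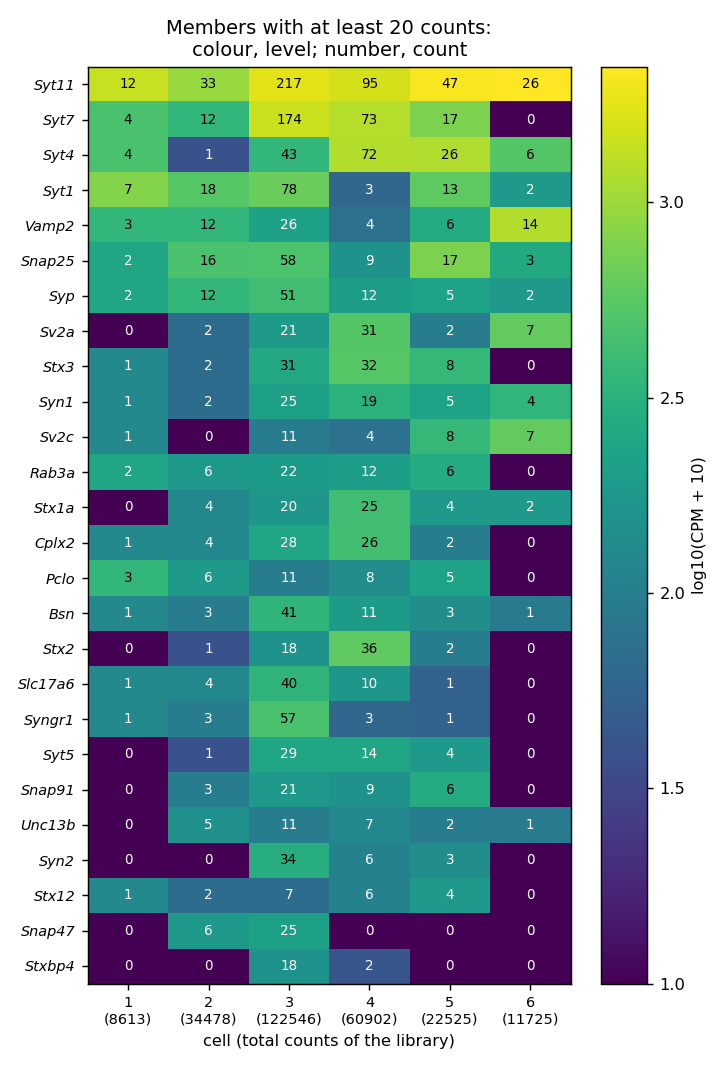
Counts in each cell of 26 of the 27 members with at least 20 counts over the 6 cells, in order of mean CPM; colour gives log10 of CPM plus 10 and the printed number is the count. Syt11 is high in all 6 columns, and most genes have few counts in cells 1 and 6. Vamp2 is highest in cell 6, Syngr1 in cell 3, and Stx2 and Syt4 in cell 4.

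Each cell was set against the mean CPM of the other 5. A gene was compared where it had at least 10 counts in the cell, or 10 expected there, and called at 4-fold. Of 68 member and cell pairs compared, 8 were above (11.8%, against 13.6% of all gene and cell pairs) and 4 below (5.88%, against 7.67%). Without cell 4, 2 of 47 were below, against 9.01% of all pairs. Members thus passed the fold about as often as genes in general. In cell 3, 4 of 31 members were above (background 13.4%) and 1 below (8.03%). In cell 4, 3 of 22 were above (17.3%) and 2 below (7.0%). In cell 2, none of 7 was above (3.92%) and 1 was below (7.5%). In cell 6, 1 of 2 was above (28.6%) and none below (7.65%). In cell 1, none of the 1 compared was above (4.76%) or below (9.52%), and in cell 5 none of 5 was above (8.63%) or below (7.01%).

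The members above were Syngr1, Syn2, Snap47 and Stxbp4 in cell 3, Stx2, Stx4a and Stxbp2 in cell 4, and Vamp2 in cell 6. Each was compared only through its own counts in that cell, since fewer than 10 were expected there from the others. The ratios and intervals that follow do not allow for this choice, so they describe the calls and lend them no further support. Syngr1 in cell 3 was at 465 CPM, 7.84 times the 59.4 CPM mean of the others, Syn2 at 277 CPM was 5.99 times its mean of 46.3, and Snap47 at 204 CPM was 5.86 times its mean of 34.8. Stxbp4 in cell 3, set against the pooled counts of the other cells, of which there were 2, had a ratio of 10.2 (2.43 to 90.2). In cell 4, Stx2 was 11.2 times the mean of the others, 591 CPM against 52.9 CPM, and Stx4a 14.4 times, 164 CPM against 11.4 CPM. Against the pooled counts of the others, in which the deeper cells weigh more, the ratios were smaller, 5.63 for Stx2 (3.20 to 10.1) and 4.69 for Stx4a (1.61 to 14.5). All counts of Stx4a in the other cells were in cell 3. Stxbp2 in cell 4 was at 164 CPM and the other cells were all at 0. The interval of its ratio to their pooled counts began at 7.36. Vamp2 in cell 6 was 4.81 times the mean of the others, 1194 CPM against 248 CPM. The pooled ratios of the others above were 8.04 for Syngr1 (3.82 to 19.5), 4.26 for Syn2 (2.002 to 10.1), 4.70 for Snap47 (1.88 to 14.0) and 5.83 for Vamp2 in cell 6 (2.98 to 10.7).

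The members below were Syt4 in cell 2, Rims2 in cell 3, and Syt1 and Vamp2 in cell 4. Syt1 in cell 4 was 0.0906 times the mean of the others, 49.3 CPM against 544 CPM, and Vamp2 was 0.139 times, 65.7 CPM against 474 CPM. Set against the pooled counts of the other cells, the ratios were 0.0834 for Syt1 (0.0170 to 0.250) and 0.215 for Vamp2 (0.0568 to 0.580). Syt4 in cell 2 had 1 count and a pooled ratio of 0.0435 (0.00109 to 0.246). Rims2 in cell 3 had 1 count and a pooled ratio of 0.0806 (0.00191 to 0.530). Cell 4 also had the highest sum of immature neuron markers, 4992 CPM, against 2024 to 3582 CPM in the other cells. Of these markers, Stmn2, Stmn4 and Marcksl1 were highest in cell 4, at 1708, 1970 and 312 CPM. Gap43 and Stmn1 were highest in cell 6, at 682 and 853 CPM, against 213 and 558 CPM in cell 4. Dpysl3 was highest in cell 5 and Dpysl5 in cell 1, and Gng8 was at 0 in all 6 cells. The sum of the red blood cell genes was also highest in cell 4. The part of either marker set in the member values above was not tested.

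Cells 3 and 4, the deepest libraries, were compared gene by gene, a comparison added after the data were seen. It took the 37 members at 81.6 CPM or more in either cell, the level of 10 counts in cell 3, of 4511 such genes. Of these, 5 members were at least 4-fold above in cell 3 (13.5%, against 8.62% of the genes) and 7 at least 4-fold below (18.9%, against 17.0%). The median log2 ratio of cell 3 over cell 4 was -0.36 for the members and -0.36 for all genes compared. The members as a whole therefore sat where genes in general did, while single members lay far apart. The 5 above were Syt1, Syngr1, Stx17, Stxbp4 and Snap47, and the 7 below were Stx2, Stxbp2, Syt14, Vamp1, Sypl, Slc17a8 and Rab3c. Read by counting interval instead, 8 members lay wholly above 1 (21.6%, against 18.4% of the genes) and 12 wholly below 1 (32.4%, against 23.8%), and 17 spanned 1.

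Among the 8 members with intervals above 1, Syt1 had the highest ratio of those with counts in both cells. It was at 636 CPM in cell 3 and 49.3 CPM in cell 4, a ratio of 12.9 (4.26 to 64.0). Syngr1 was at 465 CPM in cell 3 and 49.3 CPM in cell 4, a ratio of 9.44 (3.07 to 47.1). Vamp2 had a ratio of 3.23 (1.12 to 12.7) and its partner Snap25 one of 3.20 (1.58 to 7.35). Syn2 had a ratio of 2.82, Syp 2.11 and Stxbp4 4.47 (1.07 to 39.7). Snap47 had 25 counts in cell 3 and 0 in cell 4, and the interval of its ratio began at 3.13. Stx17, with 11 counts in cell 3 and 1 in cell 4, passed 4-fold with a ratio of 5.47, but its interval spanned 1 (0.795 to 235).

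The 12 members with intervals below 1 included all 3 of the syntaxins with most counts. Stx2 had a ratio of 0.248 (0.133 to 0.449), Stx1a 0.398 (0.209 to 0.746) and Stx3 0.481 (0.284 to 0.815). Syt4 was at 351 CPM in cell 3 and 1182 CPM in cell 4, a ratio of 0.297 (0.199 to 0.439), Sv2a had a ratio of 0.337 and Cplx2 0.535. Vamp1 and Syt14 each had 1 count in cell 3 and 9 in cell 4, a ratio of 0.0552 (0.00126 to 0.398), and Sypl had 1 and 5. Stxbp2, Rab3b and Rab3c had no count in cell 3 and 10, 5 and 6 in cell 4. Among those that spanned 1 were Syt11 with a ratio of 1.14 (0.888 to 1.46), Syt7 with 1.18 (0.896 to 1.58) and Rab3a with 0.911 (0.432 to 2.02). Slc17a6 had a ratio of 1.99 (0.977 to 4.46), and Slc17a8, with 2 counts in cell 3 and 5 in cell 4, one of 0.199 (0.0189 to 1.21).

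With edgeR's TMM scaling the median log2 ratio of all genes was -0.13, against -0.36 over all counts, Rab3a changed sign, and 12 members had intervals above 1 and 10 below. The intervals of Bsn, Slc17a6, Syt7 and Syt11, which had spanned 1, then lay above 1, and those of Cplx2 and Sypl, which had lain below 1, then spanned 1. Marker sums beside this comparison were 27484 CPM in cell 3 and 14351 CPM in cell 4 for mature neurons. In the same order they were 2024 and 4992 CPM for immature neurons and 971 and 378 CPM for gland and secretory genes. For red blood cell genes they were 4080 and 12610 CPM. The part of these marker sets in the ratios was not tested.

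**Figure D4:**
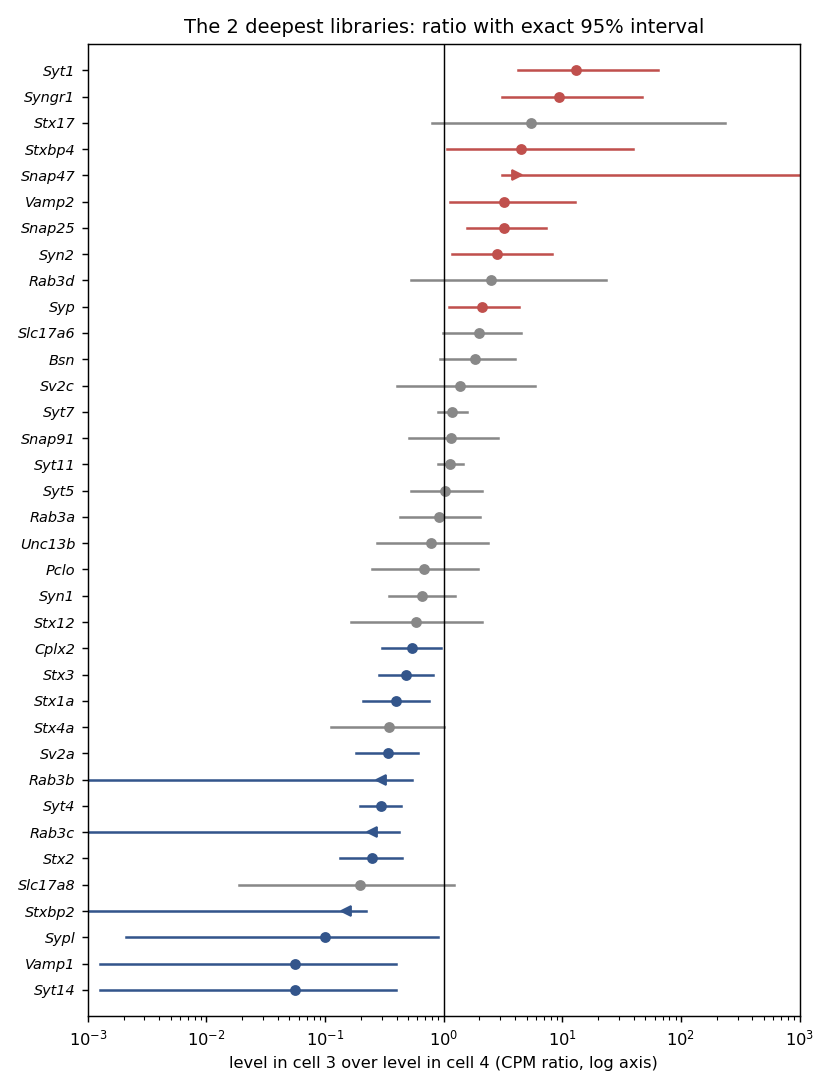
Ratio of cell 3 to cell 4 for 36 of the 37 members compared, on a log axis, with exact 95% intervals; red intervals lie above 1, blue below 1 and grey span 1, and triangles mark ratios in which a 0 was set to 3 counts. Of the members with counts in both cells, Syt1 and Syngr1 are highest, and Vamp1 and Syt14 lowest.

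Genes of vesicle retrieval and acidification outside the members were all found, where 49.8% of protein-coding genes were. Most of them were found in some cells only. All 24 genes of clathrin and vesicle endocytosis had counts, with a median sum of 2958 CPM over cells (2206 to 4040), with the highest medians for the chaperone Hspa8, the clathrin heavy chain Cltc, the dynamin Dnm1 and Epn1. Of their 30 gene and cell pairs, 3 were above 4-fold and none below, where 13.6% and 7.67% of all pairs were. These were Dnm1 in cell 6 (16 counts, 1365 CPM), Itsn1 in cell 3 and Dnajc5 in cell 4. All 17 genes of the proton pump that acidifies vesicles were found, with a median sum of 2595 CPM (1856 to 3070), with the highest medians for Atp6v1a, Atp6v0c, Atp6ap2 and Atp6v0d1. Of 28 pairs, 1 was above, Atp6v0c in cell 6 (18 counts, 1535 CPM), and 3 below, Atp6v0e2 and Atp6v1a in cell 4 and Atp6v1f in cell 3. The pump also acidifies lysosomes, so its genes are not particular to vesicles.

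The SNARE disassembly genes, Nsf and its Nap partners, had a median sum of 550 CPM. They had no counts in cells 1 and 6, where the intervals for the sum reached 428 and 315 CPM. Of their 6 pairs compared, 1 was above 4-fold and none below. This was Napb, the form of neurons, in cell 4 (36 counts, 591 CPM). Of 10 presynaptic calcium channel genes 8 were found, with a median sum of 651 CPM and Cacnb3, Cacna1b and Cacna2d1 the found genes with the highest medians. Of their 8 pairs compared, 2 were above 4-fold, Cacna1a and Cacnb2 in cell 3, and 1 below, Cacna2d1 in cell 3. Of all gene and cell pairs, 13.6% were above and 7.67% below. Active zone scaffold genes outside the members were found for 10 of 13, and priming genes for 5 of 10, with the highest medians for Cadps and Cadps2. Of all protein-coding genes, 49.8% were found in at least 1 cell.

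Genes for transmitters other than glutamate were found for 3 of 14, against 49.8% of protein-coding genes. Slc17a9, the vesicular nucleotide transporter, had 2, 13, 6, 1, 1 and 0 counts. It was above 4-fold in cell 2, which was 1 of 2 pairs compared (all pairs, 13.6%). Slc18a1 had 4 counts and Slc6a4 had 1. Gad1, Gad2, Slc32a1, Th, Chat, Slc18a2 and Slc18a3 were at 0 in all 6 cells.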

How the data were processed

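Single olfactory sensory neurons were sequenced as CEL-Seq2 libraries, and only the second read was aligned, per the labels. The authors deposited raw counts per gene symbol for 6 cells. Bowtie2 2.3.4, HTSeq, CASAVA and the build mm10 are listed in the submitters' processing notes, without roles. Not given in the sources used here are the annotation, the strand setting and any collapsing of molecular identifiers, so reads of overlapping or antisense genes cannot be told apart.

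Depth ran from 8613 to 122546 counts per cell. CPM were computed here over all counts of a cell. Gene types, positions and exon lengths came from GENCODE M21 on GRCm38, in which all 55341 symbols were found, and promoter windows from RefSeq. Intervals are exact 95% Poisson, Clopper-Pearson or conditional binomial intervals and cover counting error only; PCR copies would make them too narrow. A 0 was set to 3 counts for folds. A comparison needed at least 10 counts or expected counts, and a call a fold of 4. With 1 library per cell and 1 group, no test was made. Per-cell values are given for members with at least 20 counts and for textbook presynaptic genes; of other lists, for the 4 highest genes and those past the fold. Members and lists were chosen with earlier results of these data known. Alternatives were a protein-coding total, edgeR 4.0.16 TMM and DESeq2 1.42.0 size factors, other filters and folds, exon length, thinning and leaving out cells (Python 3.11.15, R 4.3.3). Some genes are not reported here by name, though they stay in sums and counts. The fold calls were tested on simulated Poisson counts, with changes planted only in genes with at least 10 expected counts in the cell. Genes with fewer expected counts, as in the calls above 4-fold, were not covered by that simulation.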

Additional observations from a re-analysis of the deposited data

Results flagged for a closer look

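Dixon's limit of 0.625 for a value far from the others in a set of 6 was passed by 2 of 26 series of values. Chance passes it in about 1 of 20 series. Both are the same high value of cell 6. Vamp2 was at 1194 CPM (14 counts) in cell 6, against at most 348 CPM in any other cell. The summed level of the Vamp genes in cell 6 was likewise 1194 CPM, since Vamp2 gave every Vamp count there, and the next highest cell had 522 CPM. Cell 6 had 11725 counts in all, and its mitochondrial share was 12.3%. The part of depth or of RNA quality in this value was not tested.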

How the results depend on the processing

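The median sum of the members, 8644 CPM, moved by less than the spread over cells under the alternatives run. Vamp2, Snap25, Syt11, Syp and Rab3a led their families in CPM, in raw counts and per kilobase of exons. The 10 members found in all 6 cells became 2 at a minimum of 3 counts, 4.5 with every cell thinned to 8613 counts, 29 with cells under 20000 counts left out (added after the data were seen), and 10 to 19 with each cell left out, 19 being without cell 6. The ratio of the highest to the lowest summed cell, 1.91, was 3.41 with edgeR's TMM and 2.29 with DESeq2's size factors, and 1.63 to 1.91 with each cell left out; cells 3, 4 and 5 lay above cells 1, 2 and 6 under all 4 scalings. The 8 of 68 pairs above 4-fold became 20 of 170 at 3 counts (all pairs, 17.4%), 114 of 366 with no filter (54.6%), 24 of 68 at 2-fold (32.5%) and 14 of 68 against the median of the others (22.4%), and 6 to 11 with each cell left out. The 4 of 68 pairs below became 13 of 170 at 3 counts (all pairs, 5.49%), 13 of 366 with no filter (1.26%) and 10 of 68 at 2-fold (19.4%), and 2 to 6 with each cell left out, 2 being without cell 4. TMM gave 11 above and 6 below, against 20.3% and 4.42% of all pairs. Per kilobase of exons the share of Snap25 fell to 69.1%, and that of Stx3 to 17.1%, so that Stx1a led. That scale divides by exon length, with which counts of 3′ ends need not grow. The share of Sv2a was 39.6% to 57.9% with each cell left out, and Sv2c led without cell 4. The cause of these differences was not tested, beyond the fewer or more pairs that a filter admits. None of the medians of named genes moved by more than the spread over cells. No paired analysis was possible because all 6 cells form 1 group. Depth limits what can be said of cells 1 and 6, where 3 counts stand for 348 and 256 CPM.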
